A study of Sus scrofa with 6 samples.

Results

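The genes described here encode chromatin modifiers and remodellers, the proteins that write, read and erase chemical marks on DNA and histones or move nucleosomes. The members were taken from the deposited gene table by symbol, as records off chromosome X whose name begins as those of the lysine demethylases, the MLL and SETD methyltransferases, the histone acetyltransferases and their coactivators, the deacetylases and corepressors, the TET and DNMT enzymes, the CHD, SMARC and ARID remodelling families and the BRD bromodomain proteins. The rule found 71 records, each with its own symbol, of 7661 in the table, and left out 4 matching records on chromosome X. The members lay on 15 chromosomes and on 2 unplaced scaffolds. Each listed record had a CPM (reads of the gene per 1e6 reads in its library) above 10 in at least 3 libraries, so family members below that level were not analysed here. Of the members, 0 were above 10 CPM in the high libraries alone and 1 (SIRT3) in the low libraries alone, against 71 and 49 of all records; such a record is listed only through the group where it is high.

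RNA sequencing gave transcript counts for the longissimus, a long muscle of the back, from 3 pigs (Sus scrofa) with high and 3 pigs with low content of intramuscular fat, the fat held within a muscle. The labels give no treatment, and the sources used here do not give breed, sex or age. The labels do not say that the 6 libraries came from separate litters or days, and p-values measure the spread between these 6 libraries. Library totals ran from 25371989 to 28874691 reads in the high group and from 30139025 to 34813172 in the low group, so that 1 read was worth between 0.0287 and 0.0394 CPM. The lowest count of any member in any library was 154 reads.

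DNA methylation is laid down and copied by DNMT enzymes and removed step by step after oxidation by TET enzymes. Histone acetylation by the KAT enzymes, CREBBP and EP300 accompanies active genes and is reversed by HDAC and sirtuin deacetylases, which corepressor scaffolds bring to their targets. In fat cell formation, nuclear receptors such as the PPAR family work through these coactivators and corepressors.

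No member passed the threshold in the comparison of high with low fat muscle. Over all 7661 records, edgeR's quasi-likelihood test with Benjamini-Hochberg adjustment at 0.05 called 0.144% (11 records; 0.131% higher, 0.0131% lower with high fat), and 0 of the 71 members. At an unadjusted p under 0.05 it picked 13 members, 10 with a positive and 3 with a negative log2 fold change (high minus low), which is 18.3% of the members against 18.5% of all records (10.2% higher, 8.3% lower). DESeq2, which called 6.76% of all records (4.92% higher, 1.84% lower), called 4 members: TET2, NCOA1 and ARID4A higher and SIRT3 lower in the high group. In the authors' deposited table, where 4.12% of all records had a false discovery rate under 0.05 (3.25% higher, 0.875% lower), 3 members did so, TET2 and NCOA1 higher and SIRT3 lower. TET2 and SIRT3 are also in the authors' deposited list of 134 genes, 1.75% of the table.

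The 2 enzymes of DNA methylation stood on opposite sides of 0. TET2, a dioxygenase that turns methylcytosine into hydroxymethylcytosine, had the largest fold change of the 71. Its normalised level was 46.3, 46.3 and 83.7 CPM in high libraries 1 to 3, against 20.8, 22.8 and 13.5 CPM in low libraries 1 to 3. The groups did not overlap, high library 3 stood well above the other high libraries, and low library 3 was the lowest. The mean was 58.7 ± 21.6 against 19.04 ± 4.90 CPM (SD, n = 3 each), a 3.08-fold difference. On the log2 scale this was 1.62 ± 0.30 (SE), with a quasi-likelihood adjusted p of 0.0921 and a DESeq2 adjusted p of 2.44e-05. In the authors' deposited table the false discovery rate of TET2 was 5.95e-06, at a log2 fold change of 1.62 once turned to high over low. Without high library 3 the log2 fold change was 1.28 (quasi-likelihood adjusted p = 0.185), and the lowest quasi-likelihood adjusted p with any 1 library left out was 0.0814. The record lies on chromosome 8 from 125011420 to 125136835 on the minus strand, in the coordinates of the deposited table. The other listed record within 1 Mb of it, the inorganic pyrophosphatase PPA2, stood at 0.20 on the log2 scale (SE 0.12, adjusted p = 0.387).

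**Figure D1:**
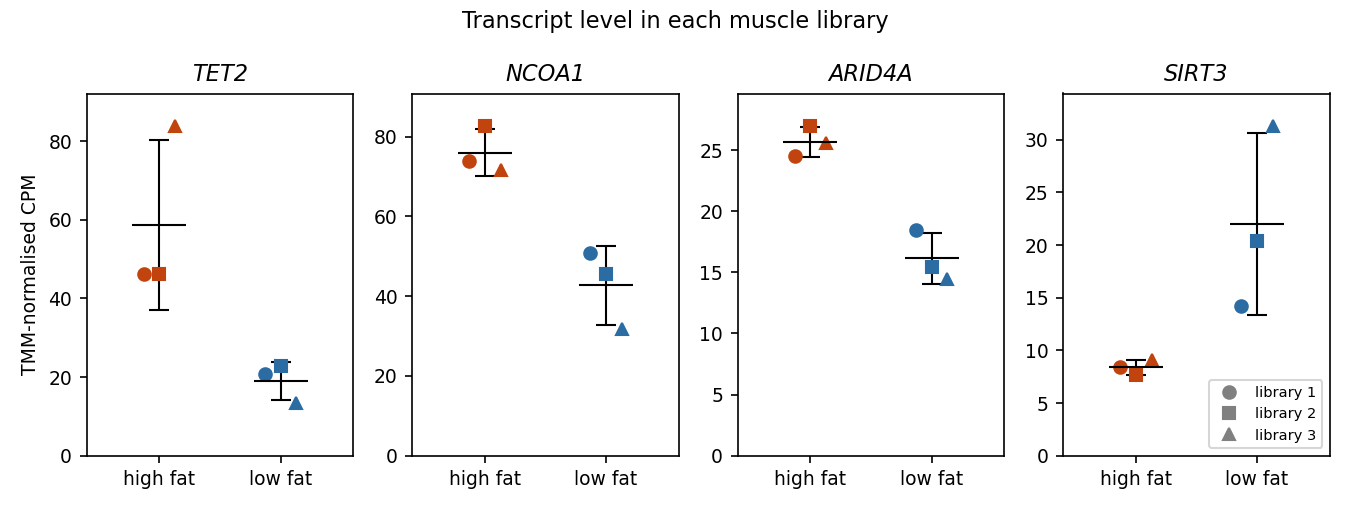
TMM-normalised CPM (vertical axis, from 0) of TET2, NCOA1, ARID4A and SIRT3 in the 3 high fat and the 3 low fat libraries; symbols mark the library number, and bars show the mean ± SD. High library 3 had 83.7 CPM of TET2, low library 3 had 31.3 CPM of SIRT3, and in none of the 4 genes did the groups overlap.

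DNMT1, the maintenance methyltransferase that copies methylation after replication, pointed the other way, but through a single library. It stood at 15.0, 17.3 and 11.4 CPM in the high libraries, against 15.5, 53.7 and 14.5 CPM in the low libraries. Low libraries 1 and 3 lay within the range of the high libraries, and low library 2 was far above all others. The log2 fold change was -0.94 (SE 0.50, adjusted p = 0.346), and -0.04 without low library 2.

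Markers of other cells were followed beside the members, and the quasi-likelihood test called 1 of them, the adipocyte gene PLIN1, which coats lipid droplets (2.75, SE 0.32, adjusted p = 0.0409); it called 0 of the fibroblast, endothelial, macrophage, erythrocyte and muscle records. The 6 adipocyte records all had positive log2 fold changes (median 1.16), but 3 of them, PLIN1, CIDEA and CIDE-C, were above 10 CPM in the high libraries alone, so their direction was fixed by the limit of the table. The other adipocyte records, LIPE, ADIPOR2 and PLIN4, had 1.15, 0.48 and 0.38, with adjusted p of 0.239, 0.175 and 0.602. The summed level of all 6 was 275, 392 and 585 CPM in high libraries 1 to 3 and 297, 299.7 and 167 CPM in low libraries 1 to 3, so that the groups overlapped. PLIN4 was the largest part of this sum, at 222 ± 92.6 CPM in the high and 170 ± 62.8 CPM in the low group (SD, n = 3 each). Taken singly, PLIN4 and LIPE overlapped between the groups, while ADIPOR2 and the 3 records listed through the high libraries did not. High library 3 and low library 3 were thus the highest and the lowest both in this sum, which is mainly set by PLIN4, and in TET2. High library 1 had a lower sum than low libraries 1 and 2, but more TET2 (46.3 against 20.8 and 22.8 CPM). The 8 fibroblast records were likewise all positive (median 0.87). Their sums were 3578, 4023 and 3056 CPM in high libraries 1 to 3 and 2101, 1343 and 2764 CPM in low libraries 1 to 3. In this sum high library 3 was the lowest of the high and low library 3 the highest of the low libraries. Of the muscle markers, 5 of 9 were found in the table, with sums of 79925 to 85998 CPM in the high and 74969 to 90563 CPM in the low libraries. Endothelial sums overlapped (284 to 338 against 218 to 340 CPM), as did those of the 2 erythrocyte records (104 to 166 against 114 to 228 CPM), and of the macrophage markers only CSF1R was found (23.5 to 29.4 against 12.3 to 22.5 CPM). The part of these cells in the results for chromatin genes was not tested. In whole muscle, more cells of a type and more RNA per cell cannot be told apart.

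Acetyltransferases and coactivators had mostly positive fold changes, and the 4 negative ones were the 4 shortest records. Of 13 records 9 were positive, with a median log2 fold change of 0.26, against -0.04 over all records of the table. The groups did not overlap in 7 of them, 4 higher and 3 lower in the high group. Over all records the groups did not overlap in 26.8%, with 13.5% higher and 13.3% lower. NCOA1, the steroid receptor coactivator SRC-1 (chromosome 3, 121228062 to 121379022), stood at 73.9, 82.6 and 71.6 CPM in the high libraries, against 50.8, 45.7 and 31.7 CPM in the low libraries. All high libraries lay above all low ones. The log2 fold change was 0.83 (SE 0.19, quasi-likelihood adjusted p = 0.112; DESeq2 adjusted p = 0.00433). Among the 7 other listed records within 1 Mb of NCOA1 the log2 fold changes ran from -0.24 to 0.69, the last being that of the endocytic scaffold ITSN2 (adjusted p = 0.117).

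KAT6A, the acetyltransferase also called MOZ, had 31.4, 38.0 and 35.8 CPM in the high libraries, against 28.3, 26.1 and 22.1 CPM in the low libraries (log2 fold change 0.46, SE 0.14, adjusted p = 0.180). CREBBP, a general coactivator with acetyltransferase activity, had 106, 120 and 121 CPM in the high libraries, against 89.0, 95.6 and 71.6 CPM in the low libraries (0.44, SE 0.15, adjusted p = 0.197). Its paralogue EP300 had a smaller difference of 0.28 (SE 0.17, adjusted p = 0.385), and its groups did not overlap either. The 3 with all high libraries below all low ones were KAT5, the acetyltransferase TIP60 of the DNA damage response, KAT8, which acetylates histone H4, and the coregulator NCOA5. KAT5 was narrow within each group, at 28.5, 28.5 and 28.8 CPM in the high libraries, against 33.8, 32.9 and 32.3 CPM in the low libraries (log2 fold change -0.21, SE 0.11, adjusted p = 0.338). KAT8 had -0.25 and NCOA5 -0.33, with adjusted p of 0.301 and 0.279. A record without a symbol on the opposite strand overlaps KAT8 and had -0.28 (SE 0.13, adjusted p = 0.308). Its means were 15.2 CPM in the high and 18.4 CPM in the low group. RNASEH2C, on the strand opposite to KAT5, overlaps KAT5 and had -0.08 (SE 0.14, adjusted p = 0.780). The strand setting of the counts is not given, so reads of these overlapping records cannot be told apart. KAT2A, the acetyltransferase GCN5, had the most negative value, -0.47 (SE 0.28, adjusted p = 0.394), with overlapping groups; it was -0.23 without high library 3 and -0.76 without high library 2. NCOA5 was -0.22 without low library 2.

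Deacetylases and corepressors were centred near 0, apart from SIRT3. SIRT3, the NAD-dependent deacetylase of mitochondria and so not itself a chromatin enzyme in most of its known work, had the most negative fold change of the 71 members. It stood at 8.44, 7.68 and 9.10 CPM in the high libraries, against 14.2, 20.4 and 31.3 CPM in the low libraries. The high libraries were close together and the low libraries were spread out, all above the high ones. Since all high libraries were under the limit of 10 CPM and all low libraries above it, SIRT3 is in the table only through the low group, and its direction and lack of overlap were fixed by that limit. The mean was 8.40 ± 0.711 against 22.0 ± 8.65 CPM (SD, n = 3 each), a difference of 2.61-fold, or -1.38 ± 0.28 (SE) in log2 units, with a quasi-likelihood adjusted p of 0.108 and a DESeq2 adjusted p of 3.61e-04. In the authors' deposited table the false discovery rate of SIRT3 was 3.72e-04. Without low library 1, SIRT3 passed the quasi-likelihood threshold (-1.60, adjusted p = 0.0498), and without low library 3 it had -1.04 (adjusted p = 0.117).

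The records around SIRT3 were on the same side of 0 (chromosome 2, 162170117 to 162186215, plus strand). All 6 other listed records within 1 Mb had negative log2 fold changes, from -2.26 to -0.30, and none passed the threshold (lowest adjusted p = 0.134). The guanine nucleotide exchange factor RIC8A, which lies 592 bp to the right of SIRT3, had -0.89 (SE 0.24, adjusted p = 0.142). The proteasome subunit PSMD13, which lies 582 bp to its left, had -0.40 (SE 0.14, adjusted p = 0.211). A record on the minus strand without a symbol (ENSSSCG00000014564, 162099157 to 162210447) covers the whole of SIRT3 and had a log2 fold change of -0.37 (adjusted p = 0.298), at 252 ± 14.5 CPM in the high and 325 ± 62.6 CPM in the low group (SD, n = 3 each). Whether reads were counted by strand is not given in the sources used here, so reads of such overlapping records cannot be told apart.

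The other 7 records of this family had log2 fold changes between -0.24 and 0.34, and their groups overlapped in every case. HDAC1, a class I histone deacetylase, had 13.5, 13.8 and 15.2 CPM in the high libraries, against 14.4, 18.5 and 17.4 CPM in the low libraries (log2 fold change -0.24, SE 0.15, adjusted p = 0.401). The nuclear receptor corepressor NCOR1 had -0.13 (SE 0.24) and was highest in low library 2, at 126 CPM, the library that was also highest in DNMT1.

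**Figure D2:**
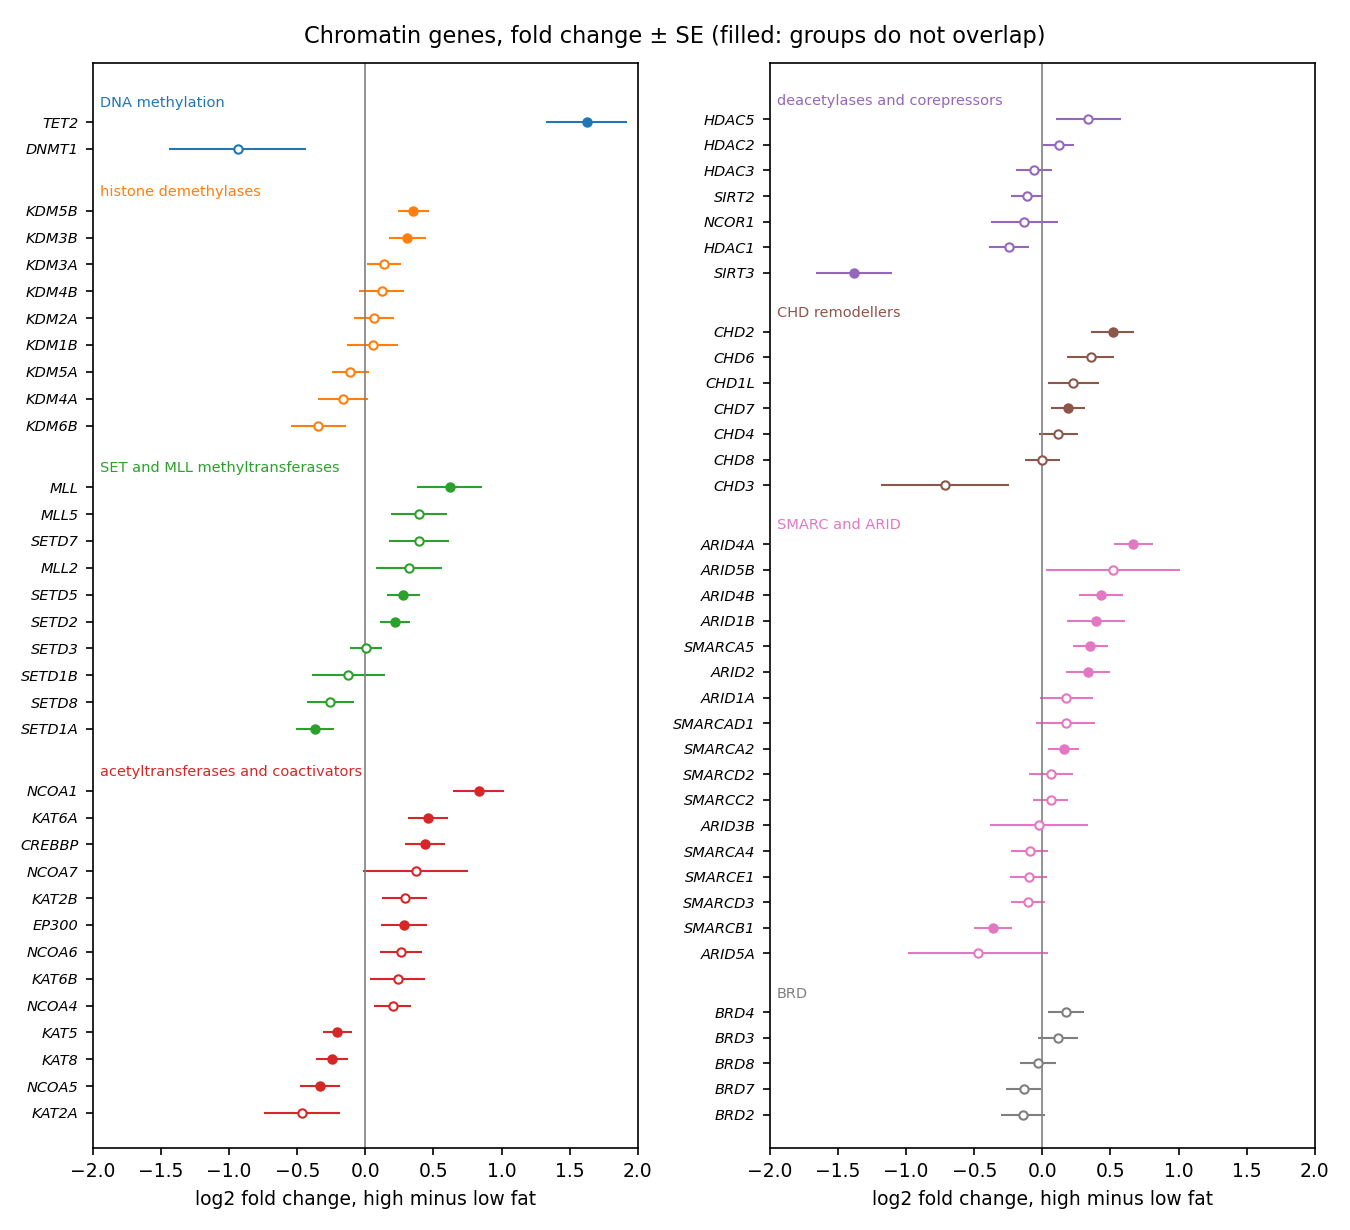
Log2 fold change (horizontal axis, high minus low fat, linear in log2 units) of 70 of the 71 chromatin genes with its standard error, grouped by family; filled points mark genes whose high and low libraries do not overlap. TET2 at 1.62 and SIRT3 at -1.38 lie farthest from 0, and 61 of the genes drawn lie within 0.5 of it.

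Methyltransferases and demethylases of histone lysines showed small differences. Among the 10 MLL and SETD records 7 were positive (median 0.25), and 4 (40.0%, against 26.8% of all records) had groups that did not overlap, 3 higher and 1 lower. MLL, the founding member of the family that methylates histone H3 at active promoters (chromosome 9, 50880742 to 50910465), had 38.1, 38.2 and 44.1 CPM in the high libraries, against 35.8, 24.3 and 18.2 CPM in the low libraries. High libraries were all above low ones, but low library 1 came close to them. The log2 fold change was 0.62 (SE 0.24, adjusted p = 0.234), and it ranged from 0.42 to 0.93 with 1 library left out. SETD1A, which makes the same kind of mark, went against MLL, at 12.1, 13.5 and 12.9 CPM in the high libraries and 16.9, 18.1 and 14.7 CPM in the low libraries (-0.37, SE 0.14, adjusted p = 0.231). SETD5 (0.28) and SETD2 (0.22) were the other members without overlap.

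Of the 9 demethylases 6 were positive, with a median of 0.06. KDM5B, which removes methyl groups from the promoter mark, stood at 41.9, 45.3 and 44.3 CPM in the high libraries, against 34.0, 36.3 and 32.6 CPM in the low libraries. The gap between the nearest libraries of the groups exceeded the SD of either group, and the log2 difference was 0.35 (SE 0.11, adjusted p = 0.182). KDM3B, an eraser of the histone H3 mark of silent chromatin, was the other demethylase without overlap (0.31, SE 0.14, adjusted p = 0.281). KDM6B, which removes the Polycomb mark, had -0.34 (SE 0.20, adjusted p = 0.386) with overlapping groups, and -0.17 without high library 3.

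Remodellers of the CHD family also stood mostly above 0. CHD2, a nucleosome-moving ATPase, had 72.6, 67.6 and 60.8 CPM in the high libraries, against 54.7, 47.1 and 38.5 CPM in the low libraries (log2 fold change 0.52, SE 0.16, adjusted p = 0.173). The groups did not overlap, and low library 3 was again the lowest. CHD3, an ATPase of the NuRD deacetylase complex, had 54.0, 46.9 and 48.9 CPM in the high libraries, against 41.0, 49.0 and 156 CPM in the low libraries. The value of -0.72 in log2 units (SE 0.47, adjusted p = 0.434) came from low library 3 and was 0.15 without it. In all, 6 of 7 CHD records were positive, with a median of 0.19.

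In the SMARC and ARID families 11 of 17 records were positive (median 0.16), and the groups did not overlap in 6 higher (35.3%) and 1 lower (5.88%) records, against 13.5% and 13.3% of all records. ARID4A, which binds the retinoblastoma protein and belongs to the SIN3 deacetylase complex (chromosome 1, 208288849 to 208356182), stood at 24.5, 26.9 and 25.6 CPM in the high libraries, against 18.5, 15.5 and 14.5 CPM in the low libraries. The gap between the nearest libraries of the groups exceeded the SD of either group. The mean was 25.7 ± 1.23 against 16.1 ± 2.08 CPM (SD, n = 3 each), and the log2 fold change was 0.67 (SE 0.14, quasi-likelihood adjusted p = 0.109; DESeq2 adjusted p = 0.00244). Its false discovery rate in the authors' deposited table was 0.0683. Its partner in the same complex, ARID4B, had 44.3, 41.6 and 46.1 CPM in the high libraries, against 36.2, 36.4 and 25.5 CPM in the low libraries (0.43, SE 0.16, adjusted p = 0.231), and 0.28 without low library 3.

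SMARCA5, the ATPase of the ISWI complexes, had 0.35 (SE 0.13, adjusted p = 0.223), at 57.8 ± 6.70 CPM in the high and 45.3 ± 2.47 CPM in the low group (SD, n = 3 each). SMARCB1, a core subunit of the SWI/SNF complex, had -0.36 (SE 0.14, adjusted p = 0.236), at 15.5, 14.6 and 15.5 CPM in the high libraries, against 18.4, 22.2 and 18.1 CPM in the low libraries. Subunits of SWI/SNF complexes thus stood on both sides of 0: ARID2 (0.33) and ARID1B (0.39) were higher in every high library than in any low one, SMARCC2 (0.06) and SMARCE1 (-0.10) overlapped, and none of the 4 passed the threshold (adjusted p between 0.309 and 0.814). ARID5B, a DNA-binding partner of a histone demethylase with a role in fat metabolism in mice, varied widely within both groups. It had 156, 218 and 348 CPM in the high libraries, against 74.9, 138 and 292 CPM in the low libraries. ARID5A had 16.6, 16.3 and 14.6 CPM in the high libraries, against 6.59, 21.7 and 37.7 CPM in the low libraries. In neither gene could a difference be told from that spread (adjusted p = 0.588 for ARID5B and 0.639 for ARID5A). The 5 BRD records, readers of acetylated histones, lay between -0.14 and 0.17, with overlapping groups throughout.

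In all, 9 pairs of paralogues were compared as a log2 ratio of counts within each library, and the pairs were chosen with the values known. Such a ratio does not depend on the scaling between libraries. It does not remove a trend on the genomic span of the records that differs between libraries. With 3 against 3 libraries an exact two-sided permutation test cannot go below p = 0.1. The exchangeable SWI/SNF ATPases SMARCA2 and SMARCA4 were the 1 pair of the 9 whose groups did not overlap. Their log2 ratio was 2.18, 1.89 and 2.10 in the high libraries, against 1.74, 1.80 and 1.86 in the low libraries, a difference of 0.26 (exact permutation p = 0.1, adjusted p = 0.386 over the 9 pairs). The ratio of KAT2B to KAT2A differed by 0.81 between the group means, with 3.66, 3.16 and 4.62 in the high libraries and 3.52, 2.73 and 2.77 in the low libraries (exact permutation p = 0.2, adjusted p = 0.386). CREBBP and EP300 kept ratios of 0.21 to 0.39 in the high and 0.07 to 0.22 in the low libraries (exact permutation p = 0.2, adjusted p = 0.386). In these 3 pairs the first gene has the longer record (177 against 52.1 kb, 58.1 against 8.91 kb and 259 against 81.9 kb). The longer record also came first in KAT6B to KAT6A (192 against 49 kb) and ARID4B to ARID4A (97.3 against 67.3 kb). Those ratios differed by -0.20 and -0.23. HDAC2 to HDAC1, ARID1B to ARID1A, CHD4 to CHD3 and SETD1B to SETD1A differed by 0.36, 0.23, 0.58 and 0.28. The part of span in the ratios was not tested.

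Across all 71 members, 44 had a positive and 27 a negative log2 fold change, with a median of 0.12; over all records the median was -0.04 and 45.2% were positive. The groups did not overlap in 18 higher members (25.4%) and 6 lower ones (8.45%, SIRT3 among them), where the background was 13.5% and 13.3%. These differences went with the genomic span of the gene records as deposited. Whether a record covers the full length of its gene was not checked. The 29 members that span 50 kb or more, such as CREBBP (259 kb), NCOA1 (151 kb), TET2 (125 kb) and CHD2 (125 kb), had a median of 0.26, with 26 of them positive (89.7%) and 13 higher without overlap (44.8%); among all 1983 records of that span 71.1% were positive and 27.0% higher without overlap. The 42 shorter members, such as SIRT3 (16.1 kb), KAT8 (12.9 kb) and KAT5 (10.5 kb), had a median of -0.08, with 18 positive (42.9%; 36.1% of all 5678 shorter records), 5 higher and 6 lower without overlap (11.9% and 14.3%, against 8.75% and 16.6% of all shorter records). The whole table showed the same split, with a median of 0.16 for all records of 50 kb or more and -0.09 for the shorter ones. Spearman's rho between span and log2 fold change was 0.593 over the 71 members and 0.407 over all 7661 records; genes of the same libraries are not independent replicates. Member records tend to be long, with a median span of 38.2 kb against 21.7 kb for all records. With the trend on span removed in each library, 35 members were positive and 36 negative, and the median was -0.00198. The median of all records was then -0.0413, so the members still stood slightly above it. The 29 long members then had a median of 0.08, with 17 positive, and rho over the members was 0.263. Under that correction TET2 kept 1.41 (adjusted p = 0.121), SIRT3 -1.34 (adjusted p = 0.124), NCOA1 0.59 (adjusted p = 0.175) and ARID4A 0.51 (adjusted p = 0.171), while CREBBP had 0.14, KDM5B 0.16, ARID4B 0.23, CHD2 0.30, KAT5 -0.12 and HDAC1 -0.15.

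**Figure D3:**
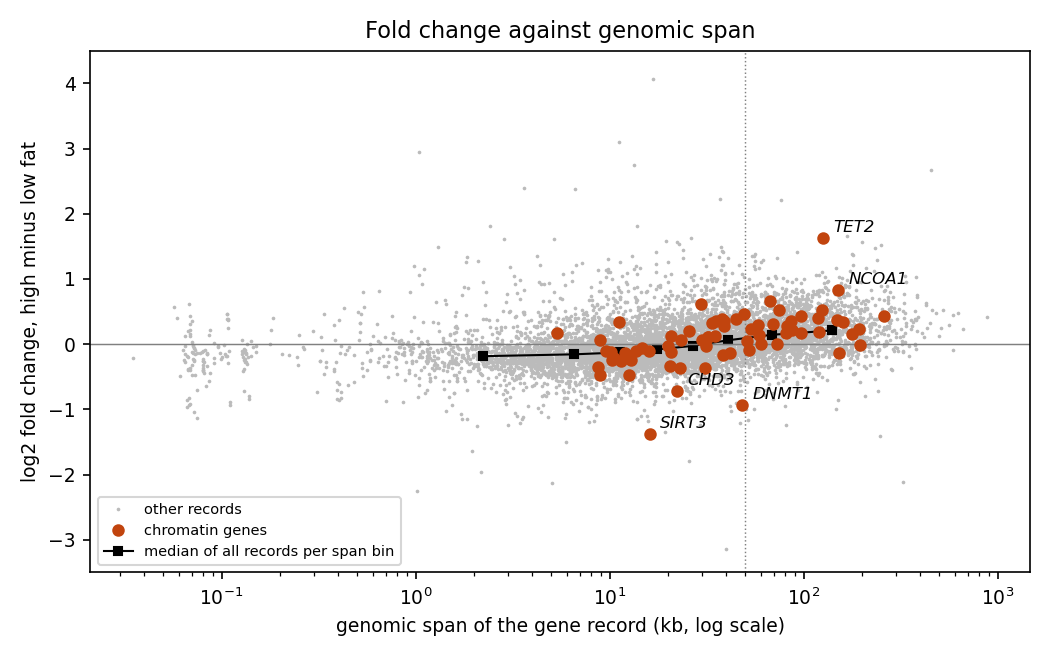
Log2 fold change (vertical axis, high minus low fat) against the genomic span of each gene record in kb (log scale); the chromatin genes are shown over all other records, the black line joins medians of all records in 8 bins of span, and the dotted line marks 50 kb. Bin medians run from -0.18 in the shortest to 0.21 in the longest bin, and TET2 and SIRT3 lie far from the line.

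Low library 3 was the lowest library more often than any other. It was the lowest of the 6 in 33 of the 71 members (46.5%, against 24.9% over all records), and in 21 of the 29 members of 50 kb or more. Over all records low library 3 was also the highest library most often, in 24.9% of them. It was the highest in 10 of the 71 members and in 0 of the 29 long ones. Among the 42 shorter members it was the highest in 10 and the lowest in 12. The median deviation of those 29 members from their mean over all libraries was 0.09, 0.18 and 0.12 on the log2 scale in high libraries 1 to 3, against -0.03, -0.05 and -0.33 in low libraries 1 to 3. Without low library 3 the median log2 fold change of all members was 0.08, with 44 still positive, and that of the 29 long members was 0.18, with 23 positive. With any of the other libraries left out, these medians were 0.12 to 0.196 for all members, the highest without low library 2, and 0.20 to 0.36 for the long members, the highest without low library 1.

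**Figure D4:**
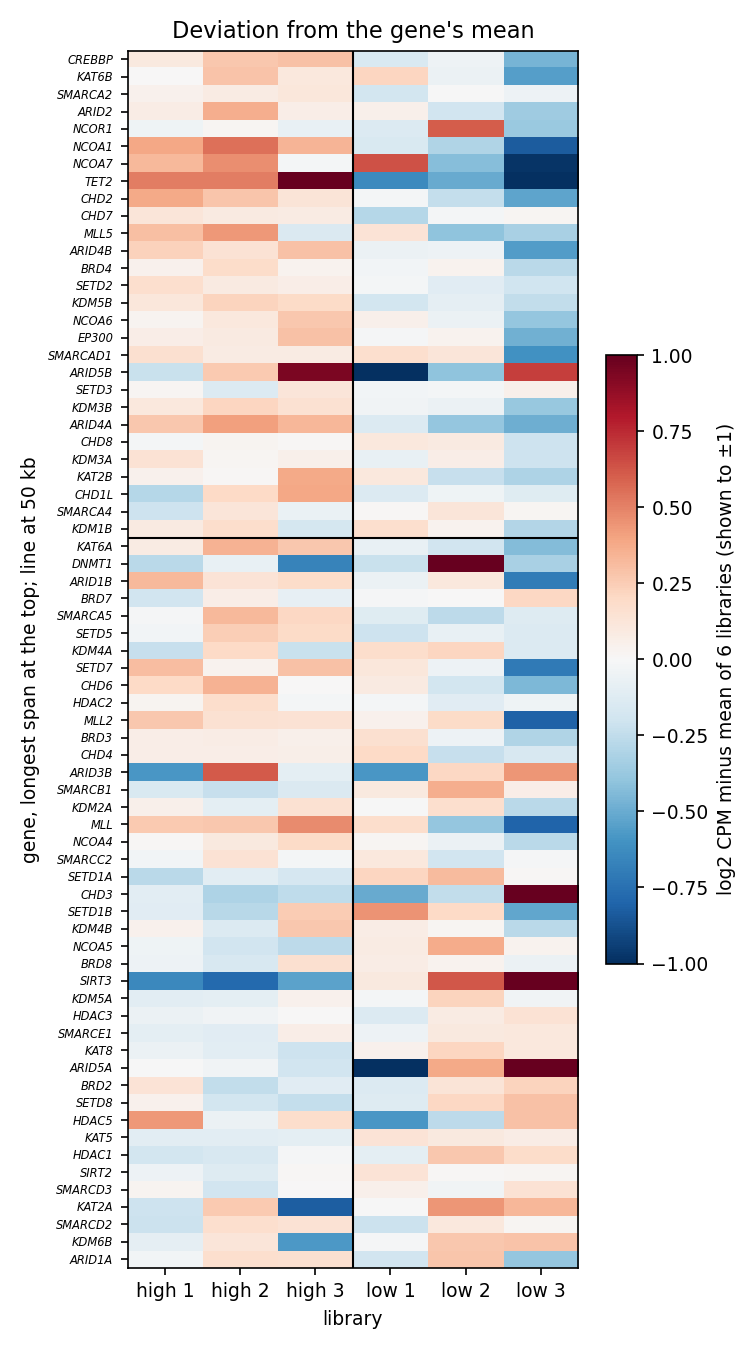
Deviation of log2 CPM from the gene's mean over the 6 libraries (colour, shown to ±1), with 70 of the 71 chromatin genes in rows, ordered by genomic span from the longest at the top, and the libraries in columns; the horizontal line marks 50 kb. Above that line the high libraries are mostly red and low library 3 is the lowest in 21 of 28 rows; DNMT1 in low library 2 and CHD3 in low library 3 stand out as single cells.

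Chromatin genes outside the rule were followed through 8 lists of related complexes, which gave 120 further records. Of these 0 passed the quasi-likelihood threshold, while 22 had an unadjusted p under 0.05 (13 higher and 9 lower; 18.3%, against 18.5% of all records) and DESeq2 called 7, of which 6 were higher (5.83%, against 6.76% of all records). Their median log2 fold change was -0.05, with 48 positive and 72 negative. IDH1, the cytosolic isocitrate dehydrogenase that makes the 2-oxoglutarate used by TET enzymes and histone demethylases, came nearest to the threshold. It is listed only through the high group, being under 10 CPM in every low library, so its direction was fixed by the limit of the table. It stood at 15.8 ± 0.911 against 8.39 ± 1.02 CPM (SD, n = 3 each; 0.91, SE 0.15, quasi-likelihood adjusted p = 0.0762). Its mitochondrial counterpart IDH2 had -0.33 (SE 0.16, adjusted p = 0.298). Polycomb genes had 12 of 22 records above 0. EZH1, the Polycomb methyltransferase of resting tissue, had 0.68 (SE 0.16, adjusted p = 0.116) and PCGF5 0.60 (SE 0.17, adjusted p = 0.152).

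Among other remodellers the groups did not overlap in 8 of 13 records, 2 higher (15.4%) and 6 lower (46.2%), against 13.5% and 13.3% of all records. Spearman's rho between span and log2 fold change was 0.775 over these 13 records. BAZ2B, a bromodomain protein, had 0.97 (SE 0.28, adjusted p = 0.160), the helicase ATRX 0.72 (SE 0.18, adjusted p = 0.134) and the ATPase RUVBL2 -0.56 (SE 0.15, adjusted p = 0.142). ATXN7, a subunit of the SAGA acetyltransferase complex, had 0.56 (SE 0.12, adjusted p = 0.108), and 9 of the 21 records of its list were positive. Of the 16 histone chaperone records 14 were negative (median -0.15), led by the importin IPO4 at -0.50 (SE 0.15, adjusted p = 0.160). The chaperone records had a median span of 15.9 kb, and 12.5% of them were positive. Over all records 45.2% were positive, and 36.1% of those under 50 kb. Other methyltransferase genes had 7 of 18 positive, with CXXC1, a subunit of the SETD1 complexes, at -0.49 (SE 0.14, adjusted p = 0.157). In the deacetylase complexes 4 of 13 were positive, TBL1XR1 having 0.63 (SE 0.25, adjusted p = 0.246), and among other demethylases 4 of 7, JMJD6 having -0.40 (SE 0.17, adjusted p = 0.255). The list of methyl-DNA readers and cofactor enzymes, which holds IDH1, had 5 of 10 above 0.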

How the data were processed

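Reads of 6 libraries were processed by the authors. The submitters' processing notes name TopHat2 2.0.4, BWA 0.6.2, Trimmomatic 0.22 and FastQC 0.10.1, with no roles. How reads were counted, by which strand setting and on which build is not given in the sources used here, and positions are printed as deposited. The authors deposited whole-number read counts per Ensembl gene, and CPM that equal these counts divided by a library total, which served as library size here. The authors deposited log2 fold changes as low over high, with p-values and false discovery rates, per the file headers.

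The counts were fitted with edgeR 4.0.16 (R 4.3.3): TMM factors, filterByExpr (which kept all 7661 records), quasi-likelihood F-test of 3 high against 3 low libraries without covariates, Benjamini-Hochberg adjustment over all records, threshold 0.05. Unless another tool is named, adjusted p-values are from this fit. A standard error is the size of the log2 fold change over the root of its F statistic. Levels are TMM-normalised CPM, and tests were two-sided. DESeq2 1.42.0, limma-voom (limma 3.58.1), edgeR's exact test, other scaling factors and filters, a replicate block, left-out libraries and removal of the span trend (loess of log2 CPM deviations on log span, as offsets) were alternatives. The procedure was checked on simulated counts, drawn independently for each gene, without a span trend or an outlying library. That check therefore says nothing on how such features of these data affect the calls.

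The members, the 8 lists and the tests were chosen with earlier results of these data known. Named were TET2, members past 0.05 in the fit, in DESeq2 or in the authors' table, the 10 per direction with the smallest unadjusted p, the 3 per direction with the largest fold change, and by the same thresholds the leading genes of the lists. ARID5A, ARID5B, EP300, KDM3B, SETD2, SETD5, NCOR1, ARID1B, ARID2, SMARCC2, SMARCE1, IDH2 and the paralogue and neighbour values were named after their values were seen. The values of 1 member, counted in every total, are not reported here. In 13 members the record overlaps another listed record.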

Additional observations from a re-analysis of the deposited data

How the results depend on the processing

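The count of 0 chromatin genes past the threshold became 4 in DESeq2 (3 higher, 1 lower), 3 in edgeR's exact test (2 higher, 1 lower) and 1 at a threshold of 0.1 (TET2); with each library left out it was 0 to 1, the 1 being SIRT3 without low library 1. For the 120 other chromatin genes the count of 0 became 7 in DESeq2, 4 in the exact test and 1 at a threshold of 0.1, and stayed 0 with each library left out. TET2 had an adjusted p of 2.44e-05 in DESeq2 (log2 fold change 1.64) and 5.95e-06 in the exact test (1.62). Its log2 fold change was 1.28 to 1.78 with each library left out, and over its 15 alternatives the adjusted p ran up to 0.2503. The exact test gave the authors' deposited log2 fold changes to within 2.85e-08 and called 316 records, as many as the authors' false discovery rate. Its calls therefore repeat those of the authors and are not a separate result. The members' median of 0.12 became 0.21 with a mean CPM of at least 20, which left 52 members. It became -0.00198 with the span trend removed, against -0.0413 over all records, and the cause of this change was not tested. With each library left out the members' median was 0.08 to 0.196. CHD3 turned to 0.15 without low library 3, its values with each library left out running from -1.02 to 0.15. The other 20 named members gave 294 values under alternatives, of which 1 was this reversal, 6 passed the threshold and 287 kept direction and side of the threshold. Since no member passed in the main fit, keeping the side means only that a value stayed short of the threshold. The count does not measure how far a fold change moved: DNMT1, at -0.94 and at -0.04 without low library 2, is among the 287. With the replicate block 0 members and 0 other chromatin genes passed (TET2 1.59, adjusted p = 0.179) and 2 of all records against 11. Same-numbered libraries correlated at 0.118, 0.0312 and -0.0815, and differently numbered ones between -0.185 and 0.144. With 3 libraries per group, these values cannot settle whether the numbers pair the libraries. The lowest count of any chromatin gene in a library was 154 reads, and the share of counting error in the spread between libraries was not tested.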
